A study of Mus musculus with 6 samples.

Results

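The miR-200 family was examined in mouse lung, as 5 mature miRNAs chosen by name: mmu-miR-200a-3p, mmu-miR-200b-3p, mmu-miR-429-3p, mmu-miR-200c-3p and mmu-miR-141-3p, written without the species prefix from here on. These were 5 of the 1963 mature mouse miRNAs with a probe on the array, and the rule used their names, not a measured value. The array was run on lung RNA of 6 mice, 3 of them WT animals given saline and 3 of them WT-BLM animals dosed intratracheally with 1.5 U/kg of bleomycin (BLM). All 6 animals were C57 BL6 mice, which the methods give as 8 to 10 weeks old, and their lungs were taken at day 21. BLM is a cytotoxic drug that injures the lung and is followed by scarring. Each array measured the whole lung of 1 mouse at 1 time, so that fewer epithelial cells and less miRNA per epithelial cell cannot be told apart.

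The miR-200 family is made mainly by epithelial cells and is a standard marker of the epithelial state. Its members bind the messenger RNAs of ZEB1 and ZEB2, transcription factors that switch off E-cadherin and other genes of cell junctions, and ZEB1 and ZEB2 in turn repress the genes of the family. TGFβ, a central signal of lung fibrosis, lowers the family in cultured epithelial cells that turn mesenchymal. A miRNA finds its targets mainly through its seed, the bases 2 to 8 from its 5′ end. The question asked of the arrays was therefore whether the family differed between WT and WT-BLM lungs, and whether its genomic clusters and its seeds behaved alike.

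The 5 mature sequences are shown because the probes were designed against them and because they define both ways of grouping the family. They were read from the array files, all 5 were identical to the RefSeq entries, and capitals mark the seed.
miR-200a-3p: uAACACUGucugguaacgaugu
miR-141-3p: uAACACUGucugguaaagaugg
miR-200b-3p: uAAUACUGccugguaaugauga
miR-429-3p: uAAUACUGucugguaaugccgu
miR-200c-3p: uAAUACUGccggguaaugaugga

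The seeds differ by a single base, C4U when the base of miR-200a-3p is written first and positions are counted from the 5′ end. On the whole array the seed of miR-200a-3p was carried by 2 probes and the seed of miR-200b-3p by 3 probes, all of them members of the family. Over the first 22 bases, 15 were identical in all 5 members. The closest pairs differed at 2 of 22 bases. These were miR-200a-3p and miR-141-3p, which differ by C17A and U22G, and miR-200b-3p and miR-200c-3p, which differ by U11G and A22G. Each of these pairs has 1 member in each cluster. Cross-hybridization between such close sequences was not tested.

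The genes lie in 2 clusters, and the positions come from the match of the array sequences to RefSeq on the mouse build GRCm38.p6. Mir200b, Mir200a and Mir429 lie within 1846 bases on the minus strand at chr4:156053905-156055750. Mir200c and Mir141 lie within 477 bases on the minus strand at chr6:124717914-124718390. Each hairpin can give a 5p and a 3p arm, and the 3p arm is the one usually kept as the active miRNA. The hairpin of 1 gene of each cluster is shown to place both arms, which were both on the array, with the 5p arm as the first capital stretch and the 3p arm as the second.
Mir200b, chr4:156055681-156055750, minus strand: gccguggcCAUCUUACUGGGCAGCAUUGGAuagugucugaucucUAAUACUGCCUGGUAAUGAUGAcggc
Mir141, chr6:124717914-124717985, minus strand: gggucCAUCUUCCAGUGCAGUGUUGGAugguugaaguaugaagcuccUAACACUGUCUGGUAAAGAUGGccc

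All 5 members were detected on all 6 arrays. A probe was called detected where its mean over both spots lay above the 800 empty spots' median by over 3 of their SDs, a margin of 24.0 to 178 intensity units. The lowest mean of a member's spots lay 505 units above the empty spots, so that every member stood well clear of this margin in every mouse. The arrays of WT mouse 3 and WT-BLM mouse 1 stood apart, with an SD of the empty spots of 59.3 and 45.2 against 8.01 to 18.1 on the others. Over all probes, 132 to 365 were detected per array, and the 275 detected on at least 3 arrays were tested. Values below are log2 intensities after normexp background correction and quantile normalization, with both spots averaged, and a fold change is WT-BLM over WT. The brightness of different probes is not comparable, so that only differences of the same probe between mice are read.

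No member of the family passed the test between WT-BLM and WT lungs, and the differences were within the spread between mice. Of the 5 members, 0 had a Benjamini-Hochberg adjusted p under 0.05 in limma, a fit across all 275 tested miRNAs in which the share called was 0%. At an unadjusted p under 0.05 there were again 0 of 5, where 1.82% of all tested miRNAs were. With all 6 arrays, miR-141-3p fell under this p in 2 other settings, described with its values. The groups overlapped for all 5 members, and 4.73% of all tested miRNAs had groups that did not overlap. The log2 fold change was above 0 for 3 of 5 members, against 56.4% of all tested miRNAs. The median log2 fold change was 0.06 over the 5 members and 0.04 over all 275. The adjusted p was 1 for each member, the methods' t-test gave 0 of 5 members an unadjusted p under 0.05 with or without pairing, and with 3 mice a group the smallest two-sided p of an exact permutation test is 0.10.

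**Figure D1:**
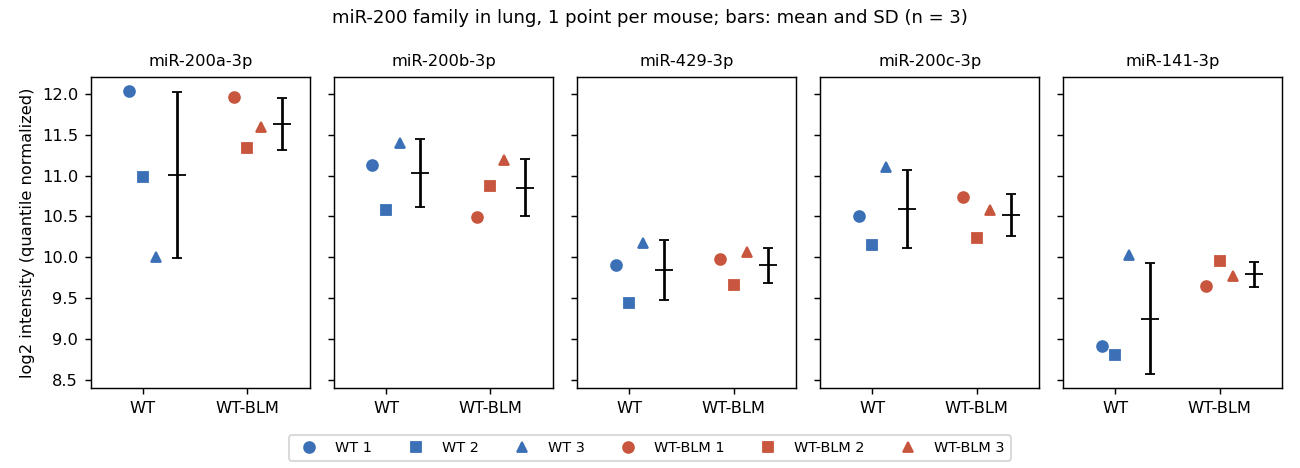
Log2 intensity (vertical axis, quantile normalized) of the 5 members in each mouse, with WT mice in blue and WT-BLM mice in red and the mean and SD of 3 mice as bars. The groups overlap in every panel, and the widest spread is that of miR-200a-3p in WT lungs, with an SD of 1.01.

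In the cluster on chromosome 4, miR-200b-3p was read at 11.13, 10.58 and 11.40 in WT mice 1, 2 and 3. Its readings in WT-BLM mice 1, 2 and 3 were 10.49, 10.87 and 11.19. WT-BLM mouse 1 was the lowest of the 6 and WT mouse 3 the highest, and the remaining mice were interleaved. The WT mean was 11.04 ± 0.42 (SD, n = 3) and the WT-BLM mean 10.85 ± 0.35. The log2 fold change was -0.19 (standard error 0.30, 95% interval -0.89 to 0.52 in limma). On the linear scale this interval runs from 0.54-fold to 1.43-fold. An exact permutation test gave a two-sided p of 0.60. In the authors' own intensities, taken as log2 after adding 50, the log2 fold change was -0.33. Without WT mouse 2 it was -0.42, without WT mouse 3 it was -0.00065, and with array weights it was 0.048.

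For miR-429-3p, the hairpin neighbour of miR-200a, WT mice 1, 2 and 3 read 9.91, 9.44 and 10.17, and their WT-BLM counterparts read 9.98, 9.65 and 10.06. The 3 WT-BLM mice all lay inside the range of the WT mice. This gave a log2 fold change of 0.06 (standard error 0.27, 95% interval -0.56 to 0.68), which was the narrowest interval among the 5 members. The exact permutation test gave a two-sided p of 0.80.

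Readings of miR-200a-3p were 12.03, 10.99 and 10.004 in WT mice 1, 2 and 3, against 11.96, 11.34 and 11.60 after BLM. WT mouse 3 was the lowest of the 6 and WT mouse 1 the highest, so that the WT group enclosed the WT-BLM group. The log2 fold change of 0.63 was the largest of the 5 members, and its standard error of 0.49 was the largest as well. The 95% interval ran from -0.52 to 1.78, and the exact permutation test gave a two-sided p of 0.50. Without WT mouse 1 the log2 fold change was 1.17 (unadjusted p = 0.017, adjusted p = 0.92 in limma), and without WT mouse 3 it was 0.11. The low value of WT mouse 3 is the mean of very unequal spots, described below.

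In the cluster on chromosome 6, miR-200c-3p read 10.50, 10.15 and 11.10 in WT mice 1, 2 and 3, against 10.73, 10.23 and 10.58 after BLM. As for miR-429-3p, all 3 WT-BLM mice lay inside the range of the WT mice, with WT mouse 3 at the top. The log2 fold change was -0.07 (standard error 0.30, 95% interval -0.77 to 0.64). Its direction turned with the setting, to 0.19 without WT mouse 3 and 0.15 with array weights, and it was -0.27 without WT mouse 2. The exact permutation test gave a two-sided p of 1.

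For miR-141-3p the readings of WT mice 1, 2 and 3 were 8.91, 8.80 and 10.03, and those of the mice given BLM were 9.64, 9.96 and 9.77. Thus 2 WT mice lay below all WT-BLM mice, while WT mouse 3 lay above them. The low value of WT mouse 1 is the mean of very unequal spots, described below. With the brighter spot it was 9.99, above all WT-BLM mice. The WT mean was 9.25 ± 0.68 (SD, n = 3) and the WT-BLM mean 9.79 ± 0.16, which gave a log2 fold change of 0.54 with a standard error of 0.35 and a 95% interval of -0.29 to 1.37. The exact permutation test gave a two-sided p of 0.40. Among the omissions of single mice this value moved most without WT mouse 3, to 0.96 (unadjusted p = 0.0031, adjusted p = 0.39 in limma), and the array of WT mouse 3 was the one with the widest empty spots. With all 6 arrays it was 0.86 with array weights (unadjusted p = 0.0068, adjusted p = 0.62) and 0.76 with scaling to the 75th percentile over all probes (unadjusted p = 0.034, adjusted p = 1.00). With the brighter spot of every pair it was 0.051.

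**Figure D2:**
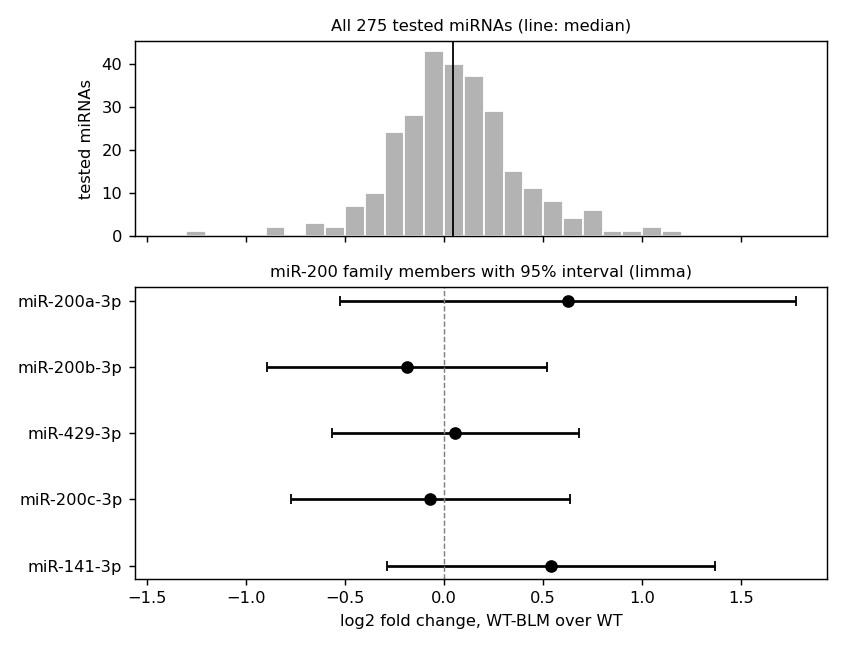
Upper panel, the number of tested miRNAs (vertical axis) by log2 fold change of WT-BLM over WT, with the median of 0.04 as a line; lower panel, the log2 fold change of each member with its 95% interval from limma on the same axis. All 5 intervals include 0, and those of miR-200a-3p and miR-141-3p reach furthest to the right, to 1.78 and 1.37.

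Both spots of each probe were compared, since a probe's value is the mean of 2 spots on the log2 scale. Of the 30 pairs of spots, 5 members on 6 arrays, 2 differed by more than 1 on this scale, and 5.82% of all tested pairs did. For miR-200a-3p on the array of WT mouse 3, the spots read 186 and 2166 above the empty spots, a ratio of 11.6. The brightness within the dim spot varied by 14.9% of its intensity and within the bright one by 4.56%. For miR-141-3p on the array of WT mouse 1, the spots read 949 and 179, a ratio of 5.29. On the array of WT mouse 2 the spots of the same probe read 671 and 339, which is under the limit. Both discordant pairs thus lay on arrays of WT mice and in the members that share the seed of miR-200a-3p, and no pair of a member on a WT-BLM array differed by more than 1.

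**Figure D3:**
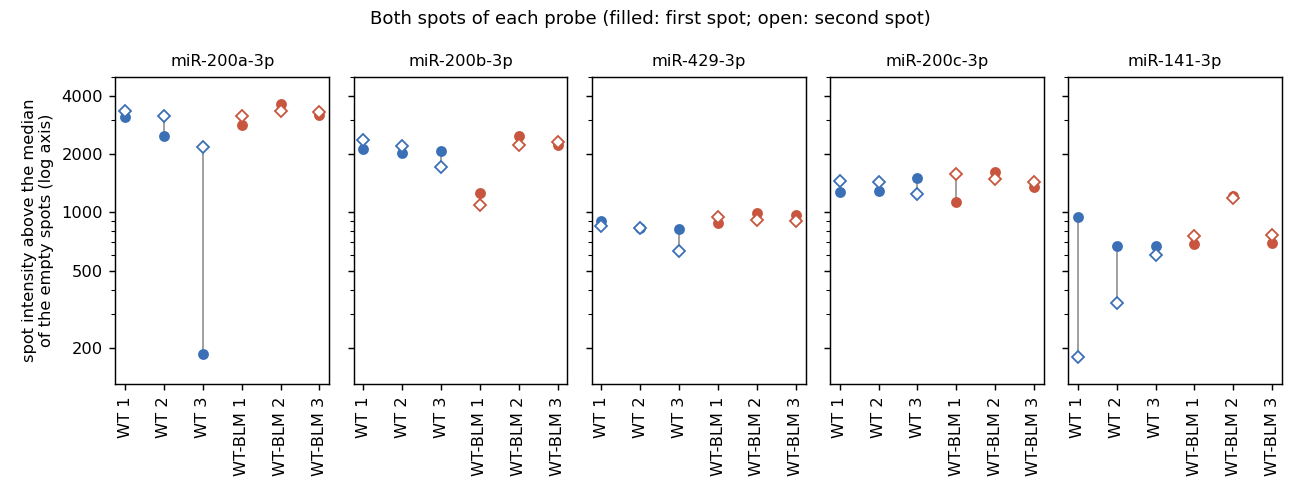
Intensity of both spots of each member above the median of the empty spots (vertical axis, log scale) on the 6 arrays, with the first spot filled and the second open, WT in blue and WT-BLM in red. Most pairs coincide, while miR-200a-3p in WT mouse 3 and miR-141-3p in WT mice 1 and 2 are drawn apart.

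When the brighter spot stood for the 2 discordant pairs, a choice made after the values were seen, miR-200a-3p was read at 11.55 in place of 10.004 in WT mouse 3. The log2 fold change of miR-200a-3p then was 0.11 and that of miR-141-3p was 0.18. With these pairs left out of the fit altogether, the values were 0.12 and 0.37, and with the brighter spot of every pair they were 0.069 and 0.051. The authors' own table, which holds 1 normalized intensity per probe, gave miR-200a-3p as 3167, 2072 and 3011 in WT mice 1, 2 and 3, against 3156, 2447 and 3068 after BLM. In that table WT mouse 3 was not low, and the means were 2750 ± 592 (SD, n = 3) and 2890 ± 386. For miR-141-3p the authors' intensities were 846, 369 and 875 against 738, 871 and 678, where WT mouse 2 alone was low. The fold changes of miR-200b-3p, miR-429-3p and miR-200c-3p did not depend on the discordant pairs, since none of their pairs exceeded the limit.

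The difference between the clusters was smaller than its spread between mice. The mean log2 intensity of the 3 members on chromosome 4 was 11.02, 10.33 and 10.53 for WT, against 10.81, 10.62 and 10.95 for WT-BLM. That of the 2 members on chromosome 6 was 9.71, 9.48 and 10.56 and then 10.19, 10.09 and 10.17. The groups overlapped for both clusters. The changes were 0.17 and 0.24 on the log2 scale, so that the change of the cluster on chromosome 4 exceeded that of the other by -0.07, against a pooled SD of 0.50 between mice for this difference. With the brighter spot for the discordant pairs the difference was -0.06. Without WT mouse 3 it was -0.46 and without WT mouse 1 it was 0.23, so that its direction turned with the mouse left out.

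Between the seeds the groups separated with both spots averaged, and the separation moved with the handling of the discordant spots. The mean of miR-200b-3p, miR-429-3p and miR-200c-3p minus that of miR-200a-3p and miR-141-3p was 0.04, 0.16 and 0.87 for WT, against -0.40, -0.39 and -0.07 for WT-BLM. The groups did not overlap. The difference fell by 0.65 on the log2 scale from WT to WT-BLM lungs, against a pooled SD of 0.34. The mean of miR-200b-3p, miR-429-3p and miR-200c-3p changed by -0.07, with overlapping groups. The mean of miR-200a-3p and miR-141-3p, the members with the discordant pairs, rose by 0.58, and its groups did not overlap. Among single tested miRNAs, 4.73% had groups that did not overlap. No p is given for the difference, because it joins members that were chosen together. With the brighter spot for the discordant pairs the values were -0.50, 0.16 and 0.10 against -0.40, -0.39 and -0.07, so that WT mouse 1 lay below all WT-BLM mice, and the change was -0.21. In the authors' intensities, taken as log2 after adding 50, the groups overlapped as well and the change was -0.27. With the discordant pairs left out it was -0.31. Without WT mouse 3, with both spots of every pair averaged, the change was -0.39, and the remaining 2 WT mice, at 0.04 and 0.16, stayed above all WT-BLM mice.

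**Figure D4:**
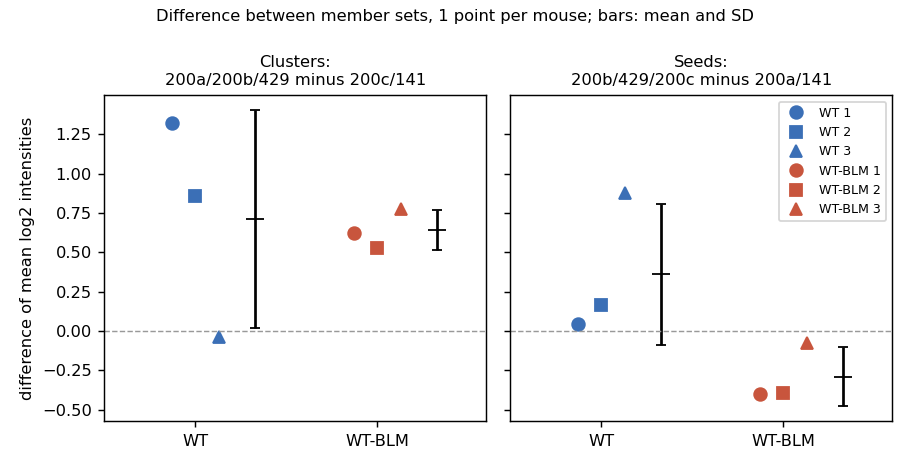
Difference of mean log2 intensities (vertical axis) between the clusters (left) and between the seeds (right) in each mouse, WT in blue and WT-BLM in red, with mean and SD of 3 mice as bars. The clusters overlap, while the seeds separate the groups with both spots averaged, with WT mouse 3 furthest from the rest at 0.87. With the brighter spot of the discordant pairs, miR-200a-3p in WT mouse 3 and miR-141-3p in WT mouse 1, the latter mouse moves to -0.50 and the seeds overlap, as they do in the authors' values.

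The 5p arms of the same hairpins were near the empty spots. None of the 5 was detected on enough arrays to be tested, and the mean of both spots lay between -13.1 and 129 units from the empty spots. miR-200b-5p was detected in WT-BLM mice 2 and 3, miR-200c-5p in WT-BLM mouse 3 and miR-141-5p in WT-BLM mouse 2. The spots of miR-200b-5p read 44.2 and 47.4 above the empty spots in WT-BLM mouse 2. In WT-BLM mouse 3 they read 14.8 and 48.4, and those of miR-200c-5p read 2.94 and 53.2. The spots of miR-141-5p in WT-BLM mouse 2 read 101 and 56.1. miR-200a-5p and miR-429-5p were detected on no array. No 5p arm was detected in an WT mouse, and the arrays of WT-BLM mice 2 and 3 had margins for detection of 45.1 and 24.0 units, against 42.9 to 178 on those of the WT mice. In the authors' table miR-200b-5p was listed at 13, 21 and 14 for WT and at 14, 24 and 42 for WT-BLM, an overlap of the groups with a two-sided p of 0.30 in an exact permutation test. The highest mean, that of miR-141-5p in WT-BLM mouse 1, came from spots of 250 and 7.75, and this array's wider margin left it undetected.

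Other miRNAs tied to epithelial cells, and those known to restrain or promote the switch to a mesenchymal state, were read on the same arrays. Of 10 other epithelial miRNAs, 7 were tested, 3 were higher and 4 lower in WT-BLM lungs, and the median log2 fold change was -0.01, against 0.04 over all tested miRNAs. None had an adjusted p under 0.05. The groups did not overlap for 1 of the 7, against 4.73% of all tested miRNAs. This was miR-34b-5p, a miRNA of multiciliated airway cells, with a log2 fold change of 0.50 (standard error 0.27). Its relatives in the list did not follow it. The groups overlapped for miR-34c-5p at 0.14 and for miR-449a-5p at -0.01, and miR-449c-5p was detected on no array. miR-205-5p, which also binds the messenger RNAs of ZEB1 and ZEB2, was detected on 3 arrays, read 8.06 in WT mouse 2 and 6.25 to 6.73 in the other mice, and had a log2 fold change of -0.25 (standard error 0.45). miR-203-3p, a miRNA of stratified epithelium, had one of -0.24 (standard error 0.37).

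The list of 7 miRNAs known to restrain the mesenchymal switch shares miR-205-5p and miR-203-3p with the epithelial list above. All 7 were tested, and 3 were higher and 4 lower, with a median log2 fold change of -0.01. In this list miR-34a-5p, a p53 target that binds the messenger RNA of Snail, had a log2 fold change of 0.57 (standard error 0.23, unadjusted p = 0.040, adjusted p = 1 in limma). It was the 1 of 7 with an unadjusted p under 0.05, against 1.82% of all tested miRNAs, and the 1 of 7 whose groups did not overlap, against 4.73%. Of 6 miRNAs known to promote the switch, 5 were tested and all 5 had a log2 fold change above 0, as 56.4% of all tested miRNAs did, with a range of 0.14 to 0.46 and a median of 0.16. None of the 5 passed the test, and the lowest unadjusted p was 0.090, that of miR-222-3p. The groups did not overlap for 1 of the 5, again miR-222-3p, against 4.73% of all tested miRNAs, and overlapped for the other 4, among them miR-21a-5p at 0.14 (standard error 0.35).

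Markers of other cell types were read in the same lungs, to describe what the epithelial signal was measured beside. The endothelial miR-126a-3p had a log2 fold change of 0.76 (standard error 0.34), its groups overlapped, and WT mouse 3 was its lowest reading at 12.78. The other arm of the same hairpin, miR-126a-5p, had one of 0.22. The erythroid miR-451a had one of 0.05 (standard error 0.26). Of 6 miRNAs of mesenchymal and smooth muscle cells, all were tested, 2 were higher and 4 lower, with a median of -0.07 and a range of -0.88 to 0.40. The lowest was miR-143-3p, which read 11.64 in WT-BLM mouse 1 and 13.53 to 14.01 in the other mice. In the authors' table that mouse was not low for miR-143-3p, at 11946 against 10614 and 12271 in WT-BLM mice 2 and 3. The highest was miR-199a-5p, the 1 of 6 whose groups did not overlap, against 4.73% of all tested miRNAs. The other arm, miR-199a-3p, had a log2 fold change of -0.09 and miR-214-3p one of -0.14, both with overlapping groups. The 5 leukocyte miRNAs include miR-155-5p, which is also in the list that promotes the mesenchymal switch. All 5 were tested, and the log2 fold changes ran from -0.02 to 0.21 with a median of 0.14. The value was above 0 for 4 of the 5, against 56.4% of all tested miRNAs, and for 1 of these, miR-223-3p, it was 0.00076 (standard error 0.30). For the 4 erythroid miRNAs the median was -0.06. None of these miRNAs had an adjusted p under 0.05, and their part in the values of the miR-200 family was not tested.

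Across the 6 mice, the tested miRNAs outside the family whose log2 intensity followed the mean of the 5 members most closely were miR-497a-5p with a Pearson r of 0.95, miR-155-5p with 0.88, miR-107-3p with 0.86, miR-31-3p with 0.85 and miR-3963 with 0.84. By rank miR-107-3p followed less closely, with a Spearman rho of 0.37, and miR-31-3p was detected on only 3 arrays. These values describe the same 6 arrays, which share hybridization and normalization, and carry no test. With the brighter spot for discordant pairs, miR-146a-5p led with 0.91, followed by miR-497a-5p with 0.90, and of the first 5 names only miR-497a-5p was among the 5 highest in both readings. Within the family, miR-429-3p and miR-200c-3p, which share a seed but not a cluster, had the closest course with an r of 0.91. The pair miR-200a-3p and miR-141-3p, which share the other seed, had an r of -0.35, and of 0.63 with the brighter spot.

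**Figure D5:**
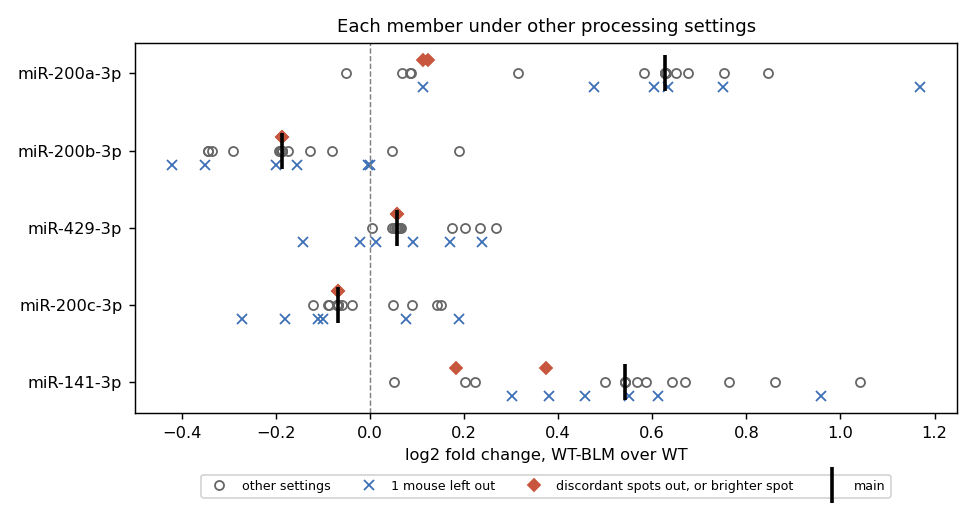
Log2 fold change of WT-BLM over WT (horizontal axis) for each member under every processing setting tried, with the value of the text as a black bar, settings that treat discordant spots as diamonds, omissions of 1 mouse as crosses and the rest as circles. Values of miR-200b-3p, miR-429-3p and miR-200c-3p lie on both sides of 0, and those of miR-200a-3p reach from -0.05 to 1.17.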

How the data were processed

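Per the labels, total lung RNA was tailed, tagged and stained with 1 dye by an array service. For each spot the authors deposited a median intensity without background subtraction, and a table of intensities that they had background-subtracted, normalized by a method not given in the sources used here, and rounded. Groups came from the sample titles.

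In R 4.3.3 with limma 3.58.1, normexp (offset 50) was fitted on all 5022 spots, control spots were removed, the remaining log2 intensities were made comparable by quantile normalization, and a probe's value was the mean of its spots. An offset of 50 shrinks the changes of dim probes. The test, run on probes detected on 3 or more arrays, was lmFit with eBayes and Benjamini-Hochberg adjustment. The steps were tested on simulated data. Exact permutation tests compared 3 with 3 mice. The number of arrays limits the precision.

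The members and lists were chosen with earlier results of these data known. Named were the 5 members, their 5p arms, the listed miRNAs as examples, and the 5 miRNAs most correlated with the family mean. Mice with the same number share only a number. The files give no slide or scan. Figures were drawn with matplotlib 3.10.9.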

Additional observations from a re-analysis of the deposited data

How the results depend on the processing

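Of 25 alternatives, 23 were planned, and the brighter spot for discordant pairs and the omission of both arrays with the widest empty spots were added after seeing the data. Adjusted p-values under 0.05 were found for 0 miRNAs in each of them, in limma or the methods' t-test. At an unadjusted p under 0.05 the count of 5 rose to 46 of 1963 without a filter and to 14 with array weights, and with single mice omitted it lay between 1 (without WT-BLM mouse 3) and 20 (without WT mouse 3). The methods' t-test gave 7 without and 9 with pairing. A slide block was not run.

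The family median, 0.06, lay between 0.0039 and 0.27 with all arrays, and between -0.14 and 0.19 over the omissions. Use of the 75th percentile as the scale moved the median of all 275 miRNAs from 0.04 to -0.11 (over probes detected on all arrays) or 0.16 (over all probes), and that of the family to 0.0039 or 0.27. The difference between clusters lay between -0.46 and 0.23 over the omissions. The difference between seeds, -0.65, moved to -0.10 with the brighter spot only, to -0.21 with the brighter spot for discordant pairs, to -0.31 with discordant spots left out, and to -0.27 and -0.28 on the authors' values plus 50 and plus 1; over the omissions it lay between -0.83 and -0.39.

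With all arrays, miR-141-3p had an unadjusted p under 0.05 in 2 settings, at 0.86 with array weights and at 0.76 with the 75th percentile over all probes. With the brighter spot only, it was 0.051 and miR-200a-3p was 0.069. Reversed values were 0.048 for miR-200b-3p and 0.15 for miR-200c-3p with array weights, and 0.14 with the 75th percentile over all probes and 0.049 without normalization for miR-200c-3p. Without both arrays with the widest empty spots they were -0.050 for miR-200a-3p, 0.19 for miR-200b-3p and 0.090 for miR-200c-3p, and miR-141-3p was 1.04 with an adjusted p of 0.53. Over the omissions of single mice, miR-200a-3p lay between 0.11 and 1.17, miR-200b-3p between -0.42 and -0.00065, miR-429-3p between -0.14 and 0.24, miR-200c-3p between -0.27 and 0.19 and miR-141-3p between 0.30 and 0.96. The cause was not tested.

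With the replicate block the log2 fold changes of all 5 members were the same, 0.63 for miR-200a-3p and 0.54 for miR-141-3p, no adjusted p fell under 0.05, and 8 miRNAs had an unadjusted p under 0.05. Same-numbered mice deviated together with correlations of 0.16, 0.028 and 0.073.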
